A study of Danio rerio with 82 samples.

Results

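The Argonaute genes and the genes of microRNA processing were followed through the growth of the zebrafish (Danio rerio) oocyte. The members were the loci whose symbol begins with ago or eif2c and a number, together with dicer1, dgcr8 and drosha. Of 28405 loci, 7 were members. They were AGO1, AGO3 (1 of 2), ago3b, ago4, dicer1 and dgcr8, found by symbol, and rnasen, which the RefSeq gene table gives as a synonym of drosha. No locus carried the symbol ago2 or drosha, and ago2 was not analysed here.

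Polyadenylated RNA was sequenced from oocytes at growth stages I through IV, with 1 library per stage, out of 82 samples in the series. All 4 libraries came from wild-type adult females of the Tu strain, with no treatment or mutation named. Oocytes were picked from the ovary by their morphology, and follicle cells were detached as far as possible, per the labels. The labels call stage I a G1-phase oocyte, stage II an S-phase oocyte, stage III prophase I and stage IV metaphase I, and the phases themselves were left unchecked here. No source used here gives the number of females or oocytes behind each library. Bulk libraries cannot tell fewer cells of a type apart from less RNA per cell.

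MicroRNAs are made from hairpins in longer transcripts. The nuclear Microprocessor, formed by the RNase III enzyme Drosha and its RNA-binding partner DGCR8, cuts out the hairpin, which is exported and cut again in the cytoplasm by Dicer. One strand of the product is loaded into an Argonaute protein, which TNRC6 proteins link to the machinery that shortens poly(A) tails and represses translation. In the mouse oocyte this pathway has been found to have little activity, and zebrafish embryos that lack both maternal and zygotic Dicer develop abnormally and are slow to clear many maternal mRNAs that miR-430 targets. The values here are levels of polyadenylated RNA of the genes relative to the rest of each library. They are not amounts per oocyte, nor levels of microRNAs or proteins. Whether poly(A) tail length or the make-up of each library had a part in the differences was not tested.

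Between stage I and stage IV, 6 of the 7 members were higher by at least 2-fold, 0 were lower, and dicer1 lay in between. A locus was called higher or lower when its difference on the log2(FPKM + 1) scale was at least 1, counted over 14109 loci that averaged 1 FPKM or more, a filter that all 7 members passed, AGO1 only through its stage IV value. FPKM scales fragments by transcript length and library size, so levels can be set against each other per length. Over all loci tested, 19.1% were called higher in this comparison and 44.4% lower. With no filter the member count was again 6 and 0, beside 9.75% and 23.4% of all 28405 loci. The median difference of the members was 3.13, and that of all loci tested was -0.75. No test was possible with a single library of each stage, and the lower and upper FPKM bounds that the authors deposited are given instead. They describe the precision within a library, not the spread between oocytes.

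The 2-fold calls came in the last step. Differences under the rule but with bounds apart were present before it, for 3 members in stage II against stage I and for 4 in stage III against stage II. No share of all loci with bounds apart is given here, so these counts cannot be called particular to the members. The 3 were ago4, rnasen and dicer1, all higher in stage II. Of the 4, AGO1, ago4 and dgcr8 were higher in stage III and dicer1 was lower. The AGO1 FPKM ratio was 2.14 there (1.07 to 4.77), under the 2-fold rule only because 1 is added to each value. For stage II against stage I, 0 members were higher and 0 lower, where 2.67% of all loci were higher and 3.15% lower. Against stage II, stage III likewise had 0 members higher and 0 lower, beside 8.67% and 7.5% of all loci. Stage IV against stage III had 6 higher and 0 lower, with dicer1 again in between, beside 16.4% higher and 46.0% lower over all loci. The member median of this step was 2.42 and the median of all loci tested -0.82.

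**Figure D1:**
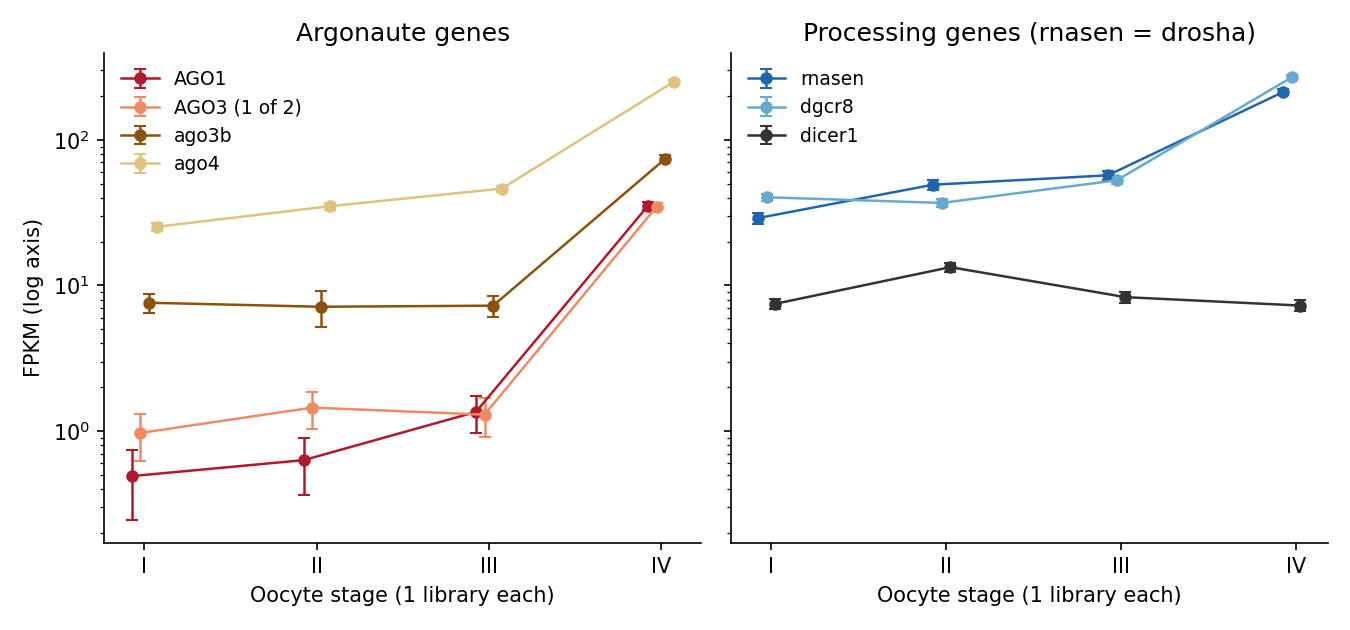
FPKM of the 7 members (log axis) in the libraries of oocyte stages I to IV, Argonaute genes on the left and processing genes on the right, with error bars for the authors' lower and upper bounds. The Argonaute genes, rnasen and dgcr8 were highest in stage IV, while dicer1 was highest in stage II and at 7.28 FPKM in stage IV.

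The Microprocessor genes were the first group by role. The locus rnasen (drosha, chromosome 12, 14450940 to 14495828, danRer7), which encodes the cutting enzyme, was at 29.0 FPKM at stage I, 49.2 at II, 57.1 at III and 213 at IV. Its bounds were apart between stages I and II and between stages III and IV, and overlapped between stages II and III. The FPKM ratio of stage IV over stage I was 7.33, with a range of 6.43 to 8.41 that the bounds allow.

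Its partner dgcr8 (chromosome 5, 26189372 to 26201321) was at 40.4, 36.9, 52.8 and 269 FPKM from stage I through IV. Stages I and II overlapped in their bounds, and stages III and IV stood above them and apart from each other. Stage IV was 6.66 times stage I (6.08 to 7.31). Within a library, dgcr8 over rnasen was 1.39 at stage I, 0.750 at II, 0.924 at III and 1.26 at IV. The order of the pair was thus reversed in stage II, where the range of the ratio, 0.655 to 0.860, lay wholly under 1, while in stage III it included 1.

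Dicer1, whose protein makes the mature duplex, had a different profile. The locus (chromosome 17, 19250142 to 19293508) was at 7.49 FPKM at stage I, 13.4 at II, 8.32 at III and 7.28 at IV. Stage II lay apart from the other libraries, and stages I, III and IV did not differ beyond their bounds. The ratio of stage IV over stage I was 0.972 (0.818 to 1.15), and the log2 difference was -0.04, or 0.71 above the median of all loci. On scaling the libraries by the median of ratios, which brought the median of all loci to -0.10, the dicer1 difference was 0.74 and still under the 2-fold rule.

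Among the Argonaute genes, ago4 had the highest level in every library. It lies on chromosome 19 (49521881 to 49553686) and was at 25.3, 35.0, 46.3 and 251 FPKM from stage I through IV. Each library stood above the one before it with no overlap of bounds, and stage IV was 9.92 times stage I (9.09 to 10.9).

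The next in level was ago3b, also on chromosome 19 (11283366 to 11308559), at 7.61, 7.14, 7.27 and 74.3 FPKM. Its first 3 libraries overlapped and the stage IV library stood apart, at 9.77 times stage I (8.02 to 12.1).

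The pair AGO1 and AGO3 (1 of 2) was at 1.45 FPKM or less up to stage III. AGO1 (chromosome 16, 54642280 to 54708191) was at 0.490 FPKM at stage I, 0.631 at II, 1.35 at III and 35.4 at IV. Its bounds overlapped between stages I and II and were apart from there on. The stage I value had bounds of 0.244 to 0.737, so the FPKM ratio of 72.1 had a wide range of 44.8 to 155. AGO3 (1 of 2) (chromosome 16, 54559833 to 54596672) was at 0.970, 1.45, 1.30 and 34.8 FPKM. Its first 3 libraries overlapped, and stage IV was 35.9 times stage I (24.9 to 59.2).

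The 2 loci are neighbours, with no other locus between them and a gap of 45607 bases. Their levels in stage IV overlapped, at an AGO1 over AGO3 (1 of 2) ratio of 1.02 (0.897 to 1.15). In stage II the ratio was 0.436 (0.197 to 0.862), and in stages I and III its range included 1. No source used here says how reads were divided between Argonaute copies of similar sequence, so the split between copies is less certain than their sum. No other locus overlapped any of the 7 members.

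The summed FPKM of the 4 Argonaute genes was 34.4 at stage I, 44.2 at II, 56.2 at III and 396 at IV. The make-up of that sum also differed. The share of ago4 was 73.6%, 79.2%, 82.4% and 63.5% from stage I through IV, and the stage IV range that the bounds allow, 61.7% to 65.3%, lay under those of the other libraries. AGO1 made up 1.43%, 1.43%, 2.41% and 8.93%, and AGO3 (1 of 2) made up 2.82%, 3.28%, 2.31% and 8.80%. For both genes the stage IV range lay above the other 3. The share of ago3b was 22.1% at stage I, 16.1% at II, 12.9% at III and 18.8% at IV. The sum covers the 4 loci that carry an Argonaute symbol, and any Argonaute locus listed under another identifier would change the sum and the shares. Shares within a library do not depend on how libraries are scaled to each other.

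**Figure D2:**
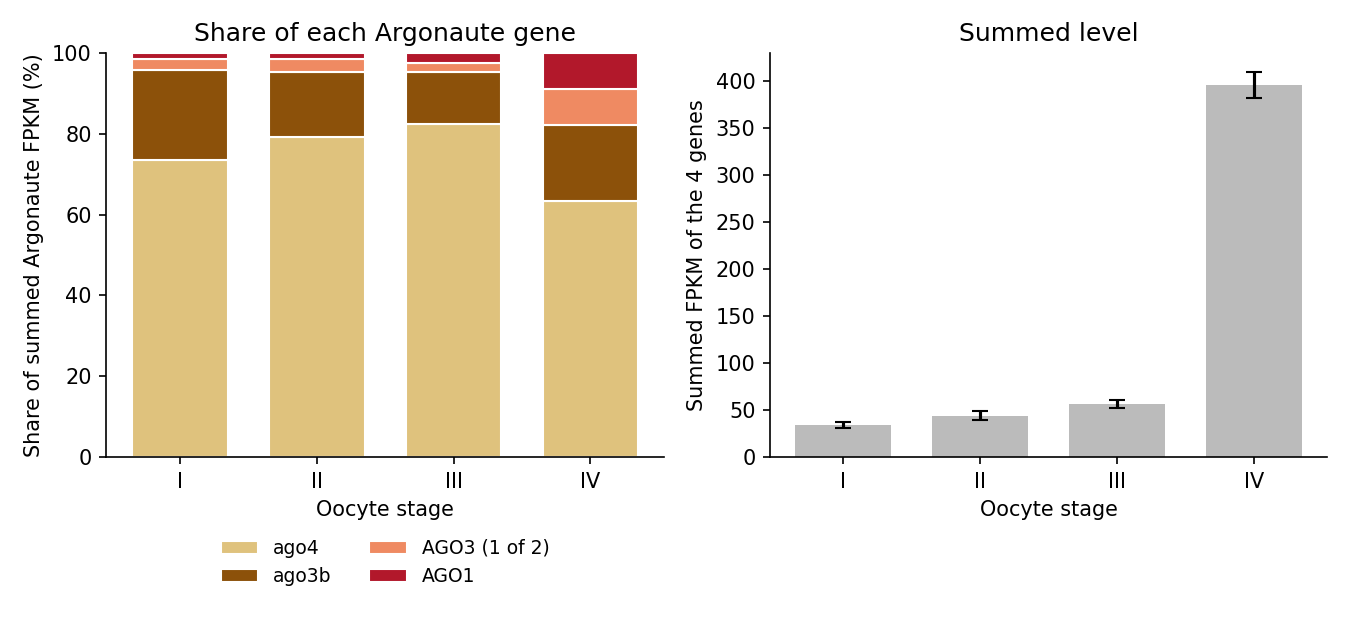
Left, share of each Argonaute gene in the summed FPKM of the 4 genes (percent) by oocyte stage; right, that sum in FPKM, with error bars for the summed bounds. The sum was 56.2 FPKM in stage III and 396 in stage IV, where AGO1 and AGO3 (1 of 2) held 8.93% and 8.80%.

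Ratios to dicer1 within a library also set stage IV apart. The summed Argonaute FPKM was 4.59 times the dicer1 FPKM at stage I, 3.31 times at II, 6.76 times at III and 54.4 times at IV. The rnasen over dicer1 ratio was 3.88, 3.68, 6.87 and 29.3, and the dgcr8 over dicer1 ratio was 5.39, 2.76, 6.35 and 36.9. In stage IV the range of each ratio lay above those of the other libraries. Each ratio was lowest in stage II, where dicer1 itself was highest, at 13.4 FPKM. Only for dgcr8 was the stage II range apart from that of stage I.

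**Figure D3:**
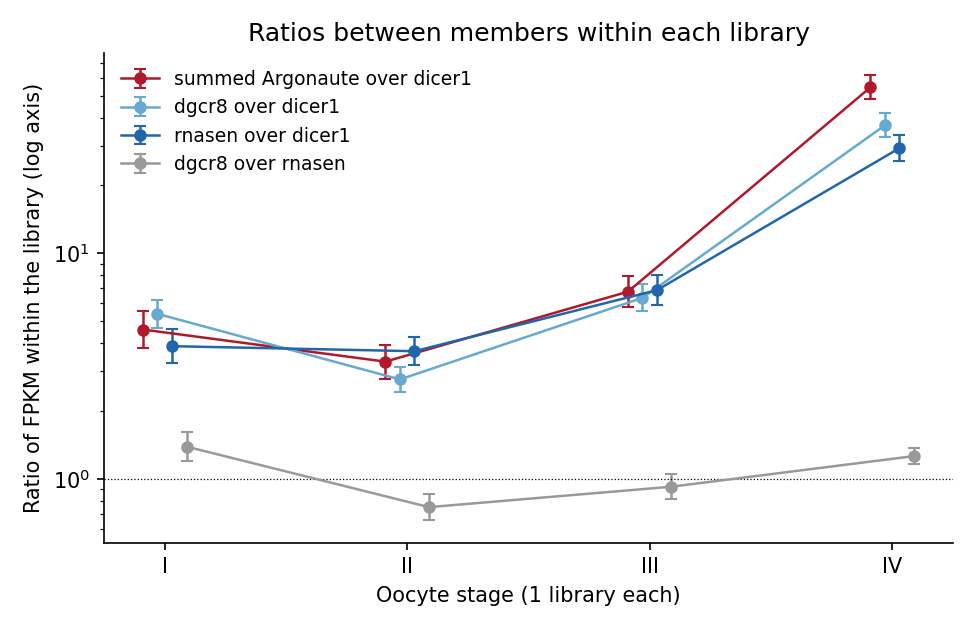
Ratios of FPKM between members within each library (log axis) by oocyte stage, with error bars for the range that the bounds allow. The 3 ratios to dicer1 reached 29.3 to 54.4 in stage IV, while dgcr8 over rnasen stayed between 0.750 and 1.39.

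The rank of a member within its library is likewise free of a scaling factor, but it depends on the levels of the other loci. Loci at 1 FPKM or more numbered 14063 in the stage I library and 11100 in the stage IV library. A locus of unchanged FPKM can therefore stand at a higher percentile in stage IV. Among all 28405 loci, with no filter, AGO1 stood at percentile 43.8 in the stage I library and 88.8 in the stage IV library, and AGO3 (1 of 2) at 50.2 and 88.8. The locus ago3b stood at percentile 69.8 and then 93.4, ago4 at 83.8 and 98.3, rnasen at 85.5 and 97.8 and dgcr8 at 89.1 and 98.4. The dicer1 locus, whose FPKM overlapped between these libraries, stood at 69.7 and then 76.9. Among the 14109 filtered loci AGO1 stood at 1.32 and 77.5, but it passed the filter only through stage IV, so a low rank there in the earlier libraries is set by the filter. AGO3 (1 of 2), at 4.27 and 77.4, passed narrowly without stage IV, at a mean of 1.24 FPKM over the other libraries.

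The width of the bounds gave a further view of the last step. Each value was assigned the number of fragments that would give its bounds by counting alone, called fragment equivalents. From stage III to stage IV, ago4 was 5.43 times higher in FPKM and 5.48 times in equivalents, and AGO3 (1 of 2) was 26.9 and 27.8 times higher. For dgcr8 the FPKM ratio was 5.09 and the equivalents ratio 2.46, and for rnasen they were 3.73 and 2.48. AGO1 was 26.1 times higher in FPKM and 18.5 times in equivalents. The direction was the same on both scales for these 3 genes, and the equivalents step was the smaller. Of the 9266 loci with at least 20 equivalents in every library, 1.96% had an equivalents step as low against the FPKM step as dgcr8, 5.61% as low as rnasen and 6.96% as low as AGO1. AGO1 itself, at 15.8 equivalents in stage I, is outside that set. The cause of the smaller equivalents steps was not tested.

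**Figure D4:**
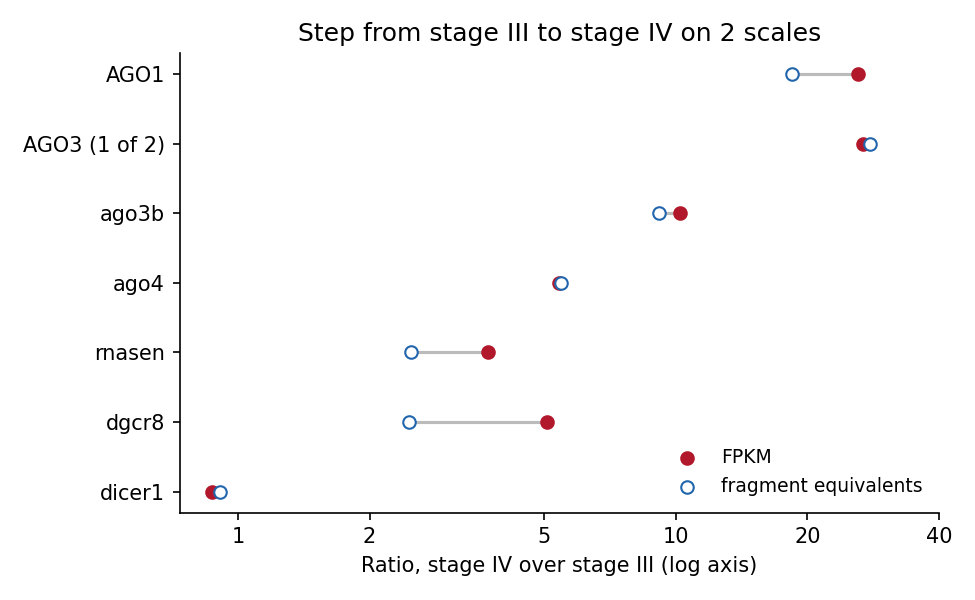
Ratio of stage IV over stage III (log axis) for each member in FPKM (filled points) and in fragment equivalents (open points). The 2 scales gave 5.43 and 5.48 for ago4, and 5.09 and 2.46 for dgcr8.

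The rest of the pathway was described from a list of 99 symbols, of which 74 were found at 79 loci and 70 loci passed the filter. In stage IV against stage I, 20 were higher, 26 were lower and 24 lay in between, with a median of -0.51, where the median of all loci was -0.75. After median-of-ratios scaling the list split into 25 higher and 18 lower. Over all loci this scaling moved the split from 2689 higher and 6260 lower to 4438 higher and 4437 lower, and it left the member count at 6 higher and 0 lower. The list was thus mixed in direction on either scale. Its roles are taken in turn and set against the 19.1% higher and 44.4% lower over all loci, or 31.8% in each direction after scaling.

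Genes of nuclear processing and its helpers were mostly higher: 10 of 12 tested were higher, 0 were lower, and the median was 1.70, so that 83.3% were higher. The list was written with earlier results of these data known, so the count only describes the genes chosen. Paralogs such as hnrnpa1a and hnrnpa1b counted as separate genes. The largest difference was that of khsrp, whose human protein binds the terminal loop of some hairpins, at 22.1, 18.7, 17.1 and 555 FPKM from stage I through IV. The RNA-editing enzyme genes adar and adarb1b stood at 13.0 and 3.51 FPKM in the first stage and reached 63.7 and 18.8 in the last. The hnRNP genes hnrnpa1a and hnrnpa1b, whose human counterpart binds the hairpin of miR-18a, stood at 64.7 and 241 FPKM in the first stage, against 272 and 963 in the last. The list also holds the LIN28 genes, whose proteins block the processing of let-7 in mammals. Of these, LIN28B was among the higher, at 6.20 and 22.0 FPKM in the first and last stage, and lin28a was not called, at 102 and 52.2. The other gene not called was ddx5, at 319 FPKM in the first stage and 226 in the last. After scaling the count was again 10 higher and 0 lower.

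Of the export and import genes, 1 of 8 was higher and 4 were lower (2 and 3 after scaling), or 12.5% and 50.0%, near the share of all loci. XPO5, whose protein carries the hairpin precursor out of the nucleus, was at 17.5, 19.2, 9.97 and 9.84 FPKM and was not called. The general exportin gene xpo1a was the one higher gene, at 37.9, 56.5, 38.1 and 187 FPKM. The gene rangap1a, whose protein activates the GTPase of Ran, went from 22.7 FPKM at stage I to 3.17 at IV.

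Dicer partners and Argonaute loading factors had 2 of 18 higher and 8 lower (4 and 6 after scaling), or 11.1% and 44.4%, the latter equal to the share of all loci. The Dicer partner gene tarbp2 was at 50.1, 37.6, 55.7 and 177 FPKM, and its relative prkra was at 47.0, 37.6, 32.4 and 7.64. These 2 genes of double-stranded RNA-binding partners therefore differed in opposite directions in stage IV, while dicer1 itself was not called. The nuclease gene snd1 had 77.0 FPKM at stage I and 9.41 at IV. Among chaperone genes, dnaja2 was at 230 and 19.9 FPKM, and fkbp5 at 19.0 and 2.57.

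Silencing effectors had 5 of 20 higher and 8 lower (6 and 5 after scaling), or 25.0% and 40.0%, near the share of all loci. TNRC6A, whose protein binds Argonaute, was at 12.9, 17.5, 11.8 and 49.3 FPKM. Its relative tnrc6b was at 6.66, 11.9, 27.1 and 23.3, so it was highest in stage III, not in stage IV. Both genes were called higher in stage IV against stage I. The copy TNRC6C (5 of 5), at 1.92, 3.24, 3.92 and 1.33 FPKM, was not called. The deadenylase subunit gene pan3 had 12.3 FPKM at stage I and 174 at IV, and the exonuclease gene xrn1 had 7.24 and 69.3. In the other direction, the P-body helicase gene ddx6 was at 23.4, 7.86, 5.09 and 2.79 FPKM, and the decapping factor gene edc3 was at 21.2 and 2.74 in stages I and IV. The FMR1 relatives fxr1 and fxr2 differed in opposite directions, fxr1 from 33.1 to 117 FPKM and fxr2 from 49.1 to 6.46.

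Tailing, trimming and turnover genes had 2 of 12 higher and 6 lower (3 and 4 after scaling), or 16.7% and 50.0%, near the share of all loci. The noncanonical poly(A) polymerase genes papd7 and PAPD5 moved apart. The papd7 values were 4.82, 4.61, 2.26 and 211 FPKM, and those of PAPD5 were 20.6, 35.5, 8.18 and 1.40. The methyltransferase gene henmt1, which acts on piRNAs in zebrafish, had 56.1 FPKM at stage I and 2.56 at IV, where its lower bound was 0. The RNA exonuclease gene usb1 was at 8.62 and 0.306, and zswim8, whose human protein directs Argonaute decay, at 37.2 and 4.65.

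The PIWI genes, whose proteins form the germline clade of the Argonaute family and bind piRNAs, differed in the direction opposite to the Argonaute members. The levels of piwil1 were 88.7, 38.4, 28.5 and 7.15 FPKM, and those of piwil2 were 37.9, 39.3, 22.4 and 9.40. Both were thus called lower at the last stage, with bounds apart from those of the first. Of all loci tested, 44.4% were called lower in the same comparison.

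**Figure D5:**
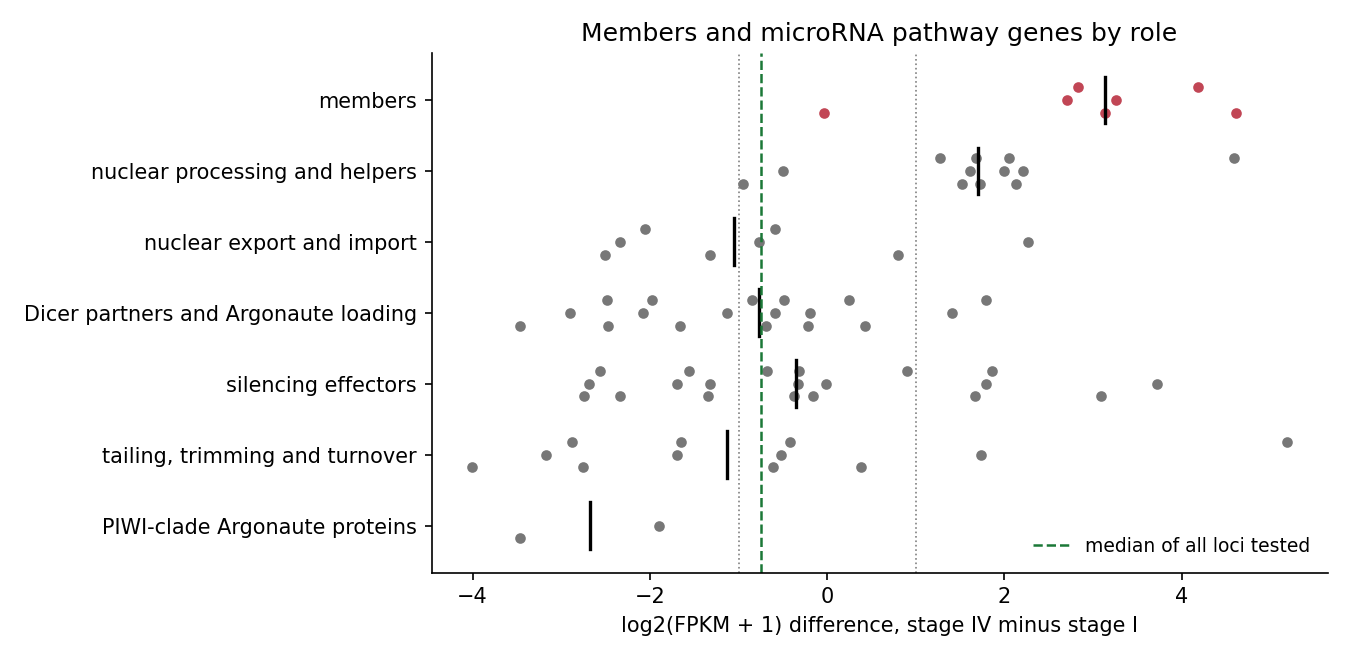
Difference between stage IV and stage I on the log2(FPKM + 1) scale for the 7 members (red) and the tested pathway genes by role (grey), 1 point per locus, with black bars for the medians, a dashed line for the median of all loci and dotted lines at the 2-fold rule. The members' median was 3.13 and that of nuclear processing 1.70, while the median of all loci was -0.75.

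The loci most alike in profile were sought for the 3 members with the largest difference, by the Euclidean distance between their 4 centred log2(FPKM + 1) values. For AGO1 the 5 nearest were shoc2, nucks1a, sfxn1, BDP1 (2 of 2) and si:dkey-7l6.7, at distances of 0.19 to 0.45. The nearest, shoc2, was at 3.76, 4.03, 5.57 and 121 FPKM. For AGO3 (1 of 2) they were BX649384.1, si:dkey-7l6.7, ptpra, dock9a and suv420h2, at 0.21 to 0.32. Of these, dock9a was listed at 0 in stages I to III and BX649384.1 at 0.0259 FPKM or less. Both loci passed the filter only through stage IV, and at such levels the distance depends on the pseudocount. For ago4 they were eml3, FAM72B, hs2st1a, slc26a5 and COBLL1 (2 of 2), at 0.12 to 0.18.

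The AGO1 profile had the fewest near loci of the 7 members: 6 lay within a distance of 0.5, beside 14 for AGO3 (1 of 2), 53 for ago3b, 105 for ago4, 114 for dgcr8, 225 for rnasen and 808 for dicer1. The counts are among loci that passed the filter, which AGO1 passed only through stage IV. They were lowest for the genes with the largest stage IV against stage I difference. The distances use a pseudocount of 1, on which the sizes of the AGO1 and AGO3 (1 of 2) differences depend. Among the members themselves the smallest distance was that of ago4 and dgcr8, at 0.47. Next came ago4 and rnasen at 0.53 and AGO1 with AGO3 (1 of 2) at 0.54. The most distant was AGO1 with dicer1, at 4.13. Counted among all loci tested, dgcr8 was only the 92nd nearest to ago4, and ago4 the 91st to dgcr8. By rank the closest pair was AGO1 and AGO3 (1 of 2), at 8 and 19. Few loci lie near either gene, so their ranks are low although their distance is larger than that of ago4 and dgcr8. These distances rest on 4 libraries.

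Markers of the oocyte and of the cells around it moved with stage. Counts of lower markers below stand beside 44.4% of all loci tested that were lower in stage IV against stage I. Of the oocyte markers, 9 of 10 were at 1 FPKM or more in every library, and figla, a transcription factor gene of early oocytes, was listed at 0 in all 4. Their summed FPKM was 4261, 3212, 2622 and 687 from stage I through IV, and 8 of 9 tested were called lower between the first and last stage. The exception, dazl, had 73.1 FPKM at stage I and 432 at IV. Follicle cell markers at 18 loci summed to 772, 513, 948 and 215 FPKM. Of 16 tested, 12 were lower and 0 higher, and 5 loci were at 0 in stage IV (foxl2, fshr, lhcgr, star and a copy of KRT18). That copy, KRT18 (3 of 3), was at 0 in all 4 libraries. Most of the stage IV sum came from 2 genes, cyp11a1 at 170 FPKM and cyp17a1 at 33.8. By contrast, krt18, krt8 and inha were at 121, 130 and 34.1 FPKM at stage I and 0.291, 1.83 and 0.305 at IV. Stroma and smooth muscle markers at 11 loci summed to 350, 114, 373 and 9.54 FPKM, with 10 of 10 lower and 1 at 0 in stage IV, as in stages II and III. Blood markers at 25 loci summed to 2542, 2054, 16974 and 28.7 FPKM, with 9 of 12 lower and 12 at 0 in stage IV. In stages I, II and III, 3, 5 and 1 of them were at 0. Of these loci 14 carry an mfap4 symbol, listed here as a macrophage marker, and MFAP4 (8 of 14) alone was at 2286, 1434, 15587 and 16.3 FPKM. In stage III mfap4 itself was at 12.5 FPKM and the macrophage gene mpeg1 at 7.72. Whether MFAP4 (8 of 14) marks macrophages was not tested. The other 11 blood loci summed to 51.7, 29.6, 96.3 and 5.93 FPKM, with the globin gene hbaa1 at 20.7, 6.97 and 19.3 FPKM in the first 3 stages. The part of these cells in the differences of the members was not tested.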

How the data were processed

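For 1 poly(A) RNA-seq library per oocyte stage the authors deposited each locus's FPKM, its 2 bounds and a status, per the file headers. No source used here names the program behind them. Bismark, STAR 2.5.3a, Trim Galore and Bowtie2 2.2.2 appear, with the danRer7 build and no stated role, in the submitters' processing notes. The library protocol keeps strand, and no source used here says whether counting did. Read counts were not used. Fragment equivalents, (2 FPKM / (upper bound - FPKM)) squared, summed to 6201820 to 6606980 per library, lower limits of the depth, and between 0.5 and 20 they were within 0.02 of a whole number for 45.9% to 48.7% of values. The status was failed for 1 locus in stage I and 1 in stage IV, neither a member.

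Differences used log2(FPKM + 1), which understates the change of low genes, and a filter on the mean of 1 FPKM. Starts were raised by 1 to count from 1. Summed ranges add the bounds, and ranges of a ratio set opposite bounds against each other. All members were named, with the 12 pathway or PIWI loci of largest difference in each direction and the 5 nearest profiles of 3 members. LIN28B, lin28a, ddx5, XPO5, prkra, tnrc6b, TNRC6C (5 of 5), piwil2 and the marker and neighbour genes given by name were chosen after their values were seen. Where a listed symbol had several loci, the one of highest mean was taken, and numbered copies counted as loci of their own. The members and lists were chosen with earlier results of these data known. Alternatives were the pseudocount, filter, fold, scaling and, added after seeing the data, fragment equivalents and ranks without the filter. The procedure was tested on simulated data. Python 3.11.15, pandas 2.3.3, numpy 2.4.6 and matplotlib 3.10.9 were used.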

Additional observations from a re-analysis of the deposited data

How the results depend on the processing

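Of 139 recomputed values, 118 were labelled the same and 21 moved. The label depends on the size of the change, so counts of 6 and 4 members were still labelled the same. Among the moved values, the dicer1 difference of stage IV against stage I changed sign under median-of-ratios scaling, from -0.04 to 0.74. The pathway list median, given below, did so too. With a mean of at least 10 FPKM, members higher in stage IV went from 6 to 4 against both stage I and stage III, since AGO1 and AGO3 (1 of 2) no longer entered. This filter also removed dicer1, at a mean of 9.11 FPKM, so the 4 were all the members left. Under the 4-fold rule, 5 were higher for stage IV against stage III. With fragment equivalents in place of FPKM, chosen after seeing the data, 1 member was then lower for stage II against stage I, and 1 was higher for stage III against stage II. Both were ago3b, whose stage II bounds are wide, at 51.8 equivalents beside 175 in stage I and 147 in stage III. No share of all loci is given here under the 10 FPKM filter, the 4-fold rule or the equivalents. The member counts under these settings therefore cannot be called particular to the members. The stage IV against stage I difference of AGO1 was 5.91 with a pseudocount of 0.1 and 2.88 with 5, beside 4.61 with 1. In equivalents, dgcr8 differed by 1.48 in place of 2.70 and rnasen by 1.78 in place of 2.83, and both kept the call. Scaling by the median of ratios raised the median of all loci from -0.75 to -0.10 and turned that of the pathway list from -0.51 to 0.27. No paired analysis was possible because each stage has 1 library, and for the same reason no library could be left out. Depth limits AGO1 most, with 15.8 equivalents in stage I.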

Other observations

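The loci next to the members were looked up after their values were seen. Of 12 neighbouring loci that are not members, 7 passed the filter. In stage IV against stage I 2 were higher, 3 lower and 2 in between, beside 19.1% higher and 44.4% lower over all loci tested. Beside dicer1, kif11 (a mitotic spindle motor gene) was at 91.2, 120, 93.7 and 506 FPKM from stage I through IV. Next to ago4, CLSPN (1 of 2), a replication checkpoint gene, was at 47.4, 64.9, 57.2 and 325. Before ago3b, the thioesterase gene olah had 16.9 FPKM at stage I and 4.37 at IV. The locus trmt2a, a tRNA methyltransferase gene that begins 14 bases past the end of dgcr8, was at 26.5, 26.7, 26.9 and 19.5 FPKM.

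The files list 2 microRNA loci by name. Of these, mir736 was listed at 0 in all 4 libraries and mir196a-1 reached at most 0.312 FPKM, in libraries of polyadenylated RNA that were not made for small RNAs.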
